A study of Mus musculus with 15 samples.

Results

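The 9 genes described here encode the light response and the identity of the rod photoreceptor: Gnat1, Pde6a, Pde6b, Pde6g, Cnga1, Cngb1, Sag, Nrl and Nr2e3. They were chosen by name from the 55421 genes listed in the count files, through their Ensembl identifiers, and all 9 were found in every library. The libraries came from posterior eyecups, the retinal pigmented epithelium with choroid and sclera, from which the neural retina had been removed. The mice were 2.5 months old: 4 were WT, 6 carried 1 copy of the Tmem135 mutation FUN025 (FUN025/+) and 5 carried 2 copies (FUN025/FUN025). All were kept on the C57BL/6J background and, per the study's methods, were free of the rd1 allele of Pde6b and the rd8 allele of Crb1. Tissue was taken from mice of both sexes, the sex of a library is not labelled, and 1 library was made per mouse.

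Rods are the photoreceptors of dim light and lie in the neural retina, against the pigmented epithelium, which takes up the tips of their outer segments. In light, the visual pigment activates the G protein transducin, transducin activates a phosphodiesterase that breaks down cGMP, and the cGMP-gated channels of the outer segment close, until arrestin ends the signal. Rod identity depends on the transcription factors NRL and NR2E3, and NRL acts with CRX on the promoters of many rod genes. Transcripts of these genes are a usual marker of rod RNA in an eye sample. In bulk RNA the amount of neural retina left at dissection, the number of rods and the RNA per rod cannot be told apart.

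Gnat1 encodes the alpha subunit of rod transducin and lies on chromosome 9 of GRCm38 (chr9:107674474-107679712, minus strand). Pde6a and Pde6b (chr5:108388391-108432397, plus strand) encode the catalytic subunits of the rod phosphodiesterase, and Pde6g (chr11:120447605-120453500, minus strand) encodes its inhibitory subunit. Cnga1 (chr5:72603696-72644275, minus strand) and Cngb1 (chr8:95239045-95306585, minus strand) encode the alpha and beta subunits of the rod cGMP-gated channel. Sag, which encodes rod arrestin, is at chr1:87803680-87845158 on the plus strand. Nrl (chr14:55518978-55524981, minus strand) and Nr2e3 (chr9:59942771-59960659, minus strand) encode the transcription factors. In GENCODE M21 the exons of 8 of the 9 genes overlap no exon of another gene on either strand, and those of Nr2e3 share 61 bases with Gm15507, which had a mean of 0.0147 CPM (a gene's counts scaled to the total of its library).

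The RefSeq tables held the bases upstream of the start for 6 of the 9 genes. These were searched on both strands for TAATCC, the core that CRX recognises, and for TGCTGA, part of the site that NRL recognises. The CRX core was present in 3 of the 6 windows and in 6.25% of 32536 windows of the same length, and the NRL motif was present in 2 of the 6 and in 16.1% of all windows. Sag alone held both, as did 0.962% of all windows. Of the windows with a match, those of Sag, Cngb1 and Pde6b are shown, as the sequence next to the start of the genes described here. That of Cnga1, with the CRX core 228 bases before the RefSeq start, lies inside the span GENCODE gives the gene and is not printed. Nothing in these libraries measures the activity of a window. Each line gives the 250 bases before the RefSeq start, 5′ to 3′ on the gene's strand, from RefSeq on GRCm38.p6, with the matches in capitals. A match is a stretch of letters and not a measured site, and the windows of Nrl and Nr2e3, which like that of Cnga1 lie inside the GENCODE span of their gene, held neither motif. The counts of 3 and 2 of 6 thus include 3 windows that are not next to the GENCODE start. Gnat1, Pde6a and Pde6g had no entry.
Sag, chr1:87803430-87803679, plus strand, with the CRX core as its reverse complement 87 bases and the NRL motif 187 bases before the start: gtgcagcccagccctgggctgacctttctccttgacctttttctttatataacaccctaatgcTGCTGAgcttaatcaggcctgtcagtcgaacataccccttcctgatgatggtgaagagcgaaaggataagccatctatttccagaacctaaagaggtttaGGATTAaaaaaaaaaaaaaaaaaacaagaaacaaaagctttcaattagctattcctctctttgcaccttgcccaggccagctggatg
Cngb1, chr8:95306586-95306835, minus strand, with the CRX core 58 and 25 bases before the start: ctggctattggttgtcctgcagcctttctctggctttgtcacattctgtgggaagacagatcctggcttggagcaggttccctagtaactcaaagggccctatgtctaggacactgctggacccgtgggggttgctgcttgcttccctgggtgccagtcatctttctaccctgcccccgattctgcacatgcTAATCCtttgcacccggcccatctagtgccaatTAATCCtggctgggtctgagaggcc
Pde6b, chr5:108388123-108388372, plus strand, with the NRL motif 8 bases before the start: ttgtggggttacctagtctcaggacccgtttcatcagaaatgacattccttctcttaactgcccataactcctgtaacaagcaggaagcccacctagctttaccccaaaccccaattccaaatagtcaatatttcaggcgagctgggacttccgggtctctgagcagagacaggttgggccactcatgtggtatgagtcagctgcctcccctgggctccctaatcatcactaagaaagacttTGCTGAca

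Libraries held 10903183 to 20029919 counts, and each WT library (at least 18094977) was deeper than each mutant library (at most 15038383). The labels name no sequencing batch, and one shared by the WT mice only cannot be told apart from genotype. The smallest level that 3 counts allow was 0.15 to 0.28 CPM, which covers counting error only, and the 9 rod genes had at least 10 counts in every library. The 14 genes fixed as markers of the pigmented epithelium summed to between 24331 and 29625 CPM in all 15 libraries, as the tissue label implies. Tmem135 itself, whose total count need not reflect the mutation, was at 63.8 ± 2.99 CPM in WT (SD, n = 4), 74.9 ± 7.30 in FUN025/+ (n = 6) and 88.2 ± 4.57 in FUN025/FUN025 (n = 5).

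Rod transcripts were present in every library, and within each genotype their amount ranged more widely (8.82-fold in WT, 6.75-fold in FUN025/+ and 3.78-fold in FUN025/FUN025) than the genotype means were apart. Summed over the 9 genes, WT replicates 1 to 4 had 330, 1035, 212 and 117 CPM. The FUN025/+ libraries ranged from 44.1 to 298 CPM with a median of 77.9 CPM, and FUN025/FUN025 replicates 1 to 5 had 58.8, 189, 195, 98.2 and 51.5 CPM. The lowest and the highest library were 23.5-fold apart, and the 9 genes took 0.00438% to 0.106% of a library's counts. WT replicate 2 stood above all others, while the lowest WT library lay below 4 of the 11 mutant libraries, 2 of each mutant genotype, so the groups overlapped. The mean of the sum was 424 ± 417 CPM in WT (SD, n = 4), 124 ± 102 CPM in FUN025/+ (n = 6) and 119 ± 69.5 CPM in FUN025/FUN025 (n = 5). The WT mean was thus 3.42-fold the FUN025/+ mean and 3.57-fold the FUN025/FUN025 mean. Without WT replicate 2 the WT mean was 220 ± 107 CPM (n = 3), and these ratios were 1.77 and 1.86.

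**Figure D1:**
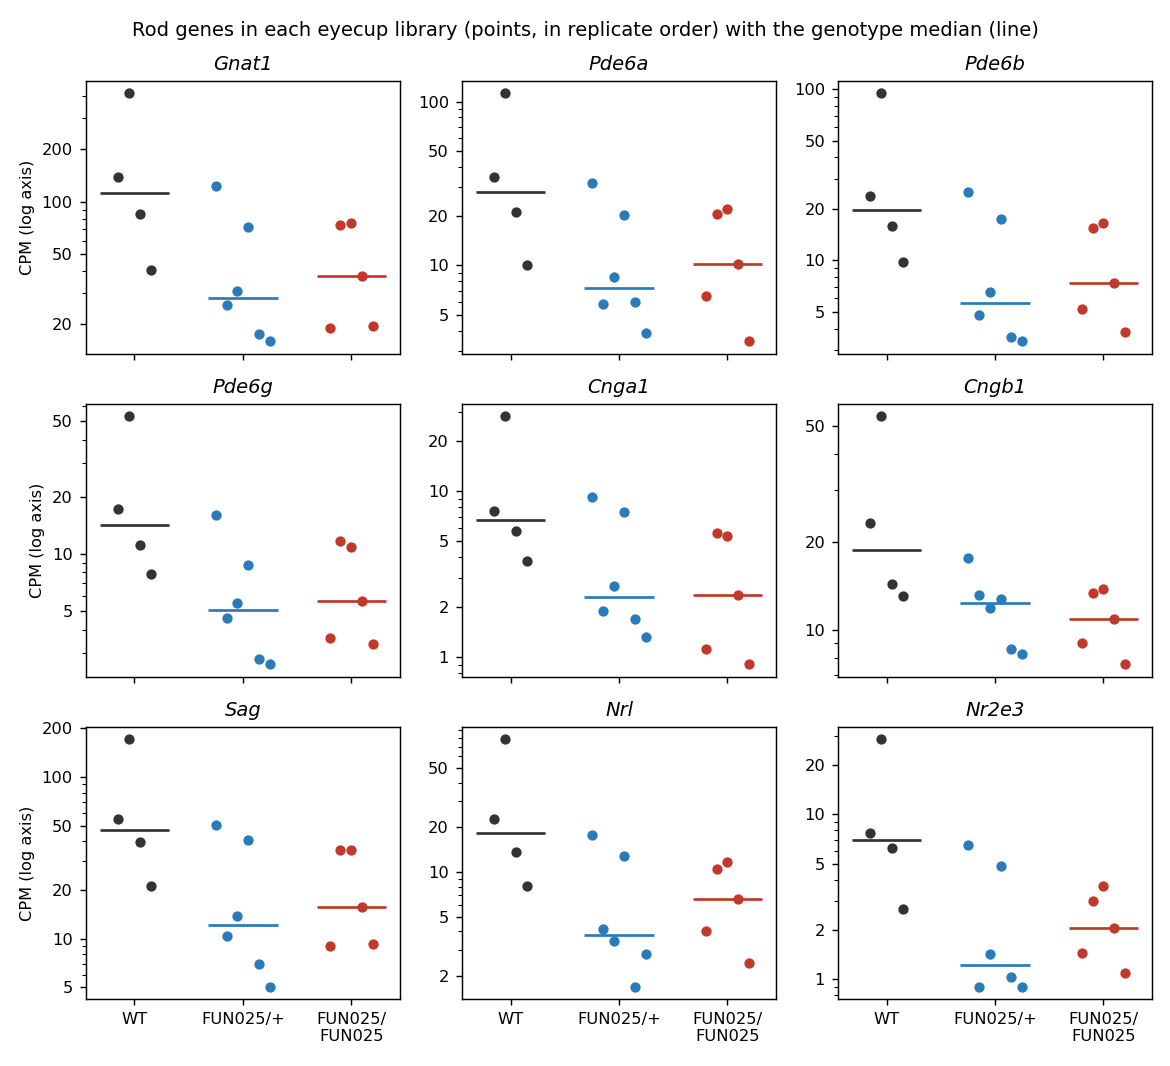
CPM of each of the 9 rod genes on a log axis (vertical) in the 4 WT, 6 FUN025/+ and 5 FUN025/FUN025 libraries (horizontal). Points are single mice in replicate order and lines are genotype medians; WT replicate 2 is the highest point in every panel, and the genotypes overlap in all 9.

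The transducin gene Gnat1 took the largest share of the counts of the 9 genes. It was at 138, 415, 84.6 and 40.7 CPM in WT replicates 1 to 4. In FUN025/+ it ranged from 16.0 to 123 CPM with a median of 28.2, and in FUN025/FUN025 replicates 1 to 5 it was at 19.0, 73.4, 75.5, 37.5 and 19.6 CPM. The mutant ranges reached well into the WT range, with 2 FUN025/+ and 2 FUN025/FUN025 libraries at or above the lowest WT library. The fitted log2 fold change was -1.83 (SE 0.74, edgeR quasi-likelihood adjusted p = 0.120) for FUN025/+ against WT and -1.92 (SE 0.78, adjusted p = 0.128) for FUN025/FUN025 against WT.

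The phosphodiesterase genes were likewise highest in WT replicate 2. Pde6b was at 23.7, 94.4, 15.9 and 9.77 CPM in WT replicates 1 to 4. It ranged from 3.37 to 25.1 CPM in FUN025/+ with a median of 5.66, and in FUN025/FUN025 replicates 1 to 5 it was at 5.18, 15.4, 16.5, 7.38 and 3.80 CPM. WT replicate 2 was far above the other 3 WT libraries, which overlapped both mutant genotypes. The partner subunit Pde6a ranged from 10.1 to 112 CPM in WT, 3.87 to 31.7 in FUN025/+ and 3.44 to 22.2 in FUN025/FUN025, and the inhibitory subunit Pde6g from 7.88 to 53.0, 2.63 to 16.0 and 3.35 to 11.8 CPM. Against WT, the log2 fold changes of the 3 genes lay between -1.81 and -1.72 in FUN025/+ (adjusted p 0.0912 to 0.132) and between -1.89 and -1.66 in FUN025/FUN025 (adjusted p 0.119 to 0.152).

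The channel subunits differed from each other in how far they ranged. Cnga1, the subunit that can form a channel on its own, had 3.77 to 28.2 CPM in WT, 1.32 to 9.24 in FUN025/+ and 0.906 to 5.61 in FUN025/FUN025. Cngb1, the modulatory subunit, was at 23.2, 53.8, 14.4 and 13.0 CPM in WT replicates 1 to 4. It ranged from 8.23 to 17.6 CPM with a median of 12.3 in FUN025/+, and was at 8.98, 13.3, 13.8, 10.8 and 7.61 CPM in FUN025/FUN025 replicates 1 to 5. Every mutant library of Cngb1 was below the WT median of 18.8 CPM, yet 2 of each mutant genotype were at or above the lowest WT library. Its log2 fold change was -1.12 (SE 0.37, adjusted p = 0.0652) in FUN025/+ and -1.26 (SE 0.39, adjusted p = 0.0508) in FUN025/FUN025, the value nearest to the threshold among the 9 genes. That of Cnga1 was -1.47 (SE 0.72, adjusted p = 0.197) and -1.88 (SE 0.77, adjusted p = 0.130).

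Sag, the rod arrestin that stops the signal of the activated pigment, was at 55.0, 171, 39.6 and 21.3 CPM in WT replicates 1 to 4. Its FUN025/+ libraries ranged from 5.02 to 50.5 CPM with a median of 12.1, and FUN025/FUN025 replicates 1 to 5 had 8.98, 35.5, 35.2, 15.7 and 9.33 CPM. WT replicates 1, 3 and 4 lay within or close above the upper mutant libraries. The log2 fold changes against WT were -1.74 (SE 0.73, adjusted p = 0.136) and -1.78 (SE 0.78, adjusted p = 0.154).

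The identity factors had the largest fitted differences from WT among the 9 genes. Nrl, the factor that sets rod over cone fate, was at 22.8, 78.4, 13.7 and 8.10 CPM in WT replicates 1 to 4. It ranged from 1.69 to 17.7 CPM in FUN025/+ with a median of 3.80, and was at 4.0, 10.5, 11.8, 6.56 and 2.45 CPM in FUN025/FUN025 replicates 1 to 5. All mutant libraries were under the WT median of 18.2 CPM, and the ranges overlapped. Nr2e3, which represses cone genes in rods, was at 7.72, 28.5, 6.28 and 2.66 CPM in WT replicates 1 to 4. It ranged from 0.90 to 6.53 CPM in FUN025/+ with a median of 1.23, and was at 1.44, 3.0, 3.69, 2.05 and 1.09 CPM in FUN025/FUN025 replicates 1 to 5. Again 2 libraries of each mutant genotype reached the lowest WT library. The log2 fold changes were -2.10 (SE 0.74, adjusted p = 0.0810) and -2.12 (SE 0.79, adjusted p = 0.0947) for Nrl. For Nr2e3 they were -2.10 (SE 0.70, adjusted p = 0.0670) and -2.32 (SE 0.76, adjusted p = 0.0598).

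By edgeR's quasi-likelihood test with Benjamini-Hochberg adjustment over 18979 genes, 0 of the 9 rod genes passed 0.05 in either comparison with WT, where 13.7% (FUN025/+) and 14.0% (FUN025/FUN025) of all tested genes did. The groups overlapped for all 9 genes in both comparisons, while they did not overlap for 10.9% and 14.7% of tested genes. At an unadjusted p under 0.05, 8 of the 9 genes (all but Cnga1) passed in FUN025/+ and 9 of 9 in FUN025/FUN025, all lower, where 28.8% and 28.6% of all tested genes passed in either direction. Without WT replicate 2 these counts were 0 of 9 and 1 of 9 (Cngb1). The FUN025/+ count was 4 of 9 without FUN025/+ replicate 2, 3, 5 or 6, and 9 of 9 without WT replicate 3 or 4 or FUN025/+ replicate 1 or 4. The FUN025/FUN025 count was 3 of 9 without FUN025/FUN025 replicate 1, 4 or 5. In the edgeR fit, Cnga1 had an unadjusted p of 0.0614 in FUN025/+. DESeq2's Wald test, with its own adjustment, called 4 (Pde6g, Cngb1, Nrl and Nr2e3) and 3 (Cngb1, Nrl and Nr2e3), and limma-voom called 0 and 0. The shares of all tested genes that passed, here and below, are edgeR's. Those of DESeq2 and limma-voom against WT are not given, so their counts have no share to be read against. The median log2 fold change of the 9 genes was -1.80 in FUN025/+ and -1.88 in FUN025/FUN025, and that of all tested genes was -0.0023 and -0.0071. The 2 comparisons share the same 4 WT libraries.

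The standard errors were the limit of these tests. They were 0.37 to 0.79 on the log2 scale for the 9 genes, where the median over all tested genes was 0.10 and 0.11. The spread came from inside the genotypes: the SD of log2 CPM within genotype was 0.99 to 1.22 for 8 of the genes, which ranked them between 74 and 261 among 18979 genes, and 0.57 for Cngb1 (rank 1107), with a median of 0.16 over all tested genes. WT replicate 2 set much of the size of the difference. Without it the median log2 fold change of the 9 genes was -0.83 in FUN025/+ and -0.88 in FUN025/FUN025, and single genes ranged from -1.07 to -0.48 and from -1.29 to -0.62, with adjusted p from 0.257 to 0.707 and from 0.155 to 0.551 by edgeR.

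The mutant genotypes could not be ordered. Between FUN025/FUN025 and FUN025/+ the 9 log2 fold changes ran from -0.41 (Cnga1) to 0.06 (Pde6g), with a median of -0.081 beside -0.0040 for all tested genes. By edgeR 0 of 9 passed, at adjusted or unadjusted p, where 0.522% and 6.23% of all tested genes did, DESeq2 and limma-voom called 0, and every adjusted p rounded to 1.00. All 9 genes overlapped between these genotypes, as did all but 1.12% of tested genes. The 95% intervals were wide, from -1.66 to 1.49 for Gnat1 and from -0.95 to 0.67 for Cngb1, so differences of that size in either direction were within the error.

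**Figure D2:**
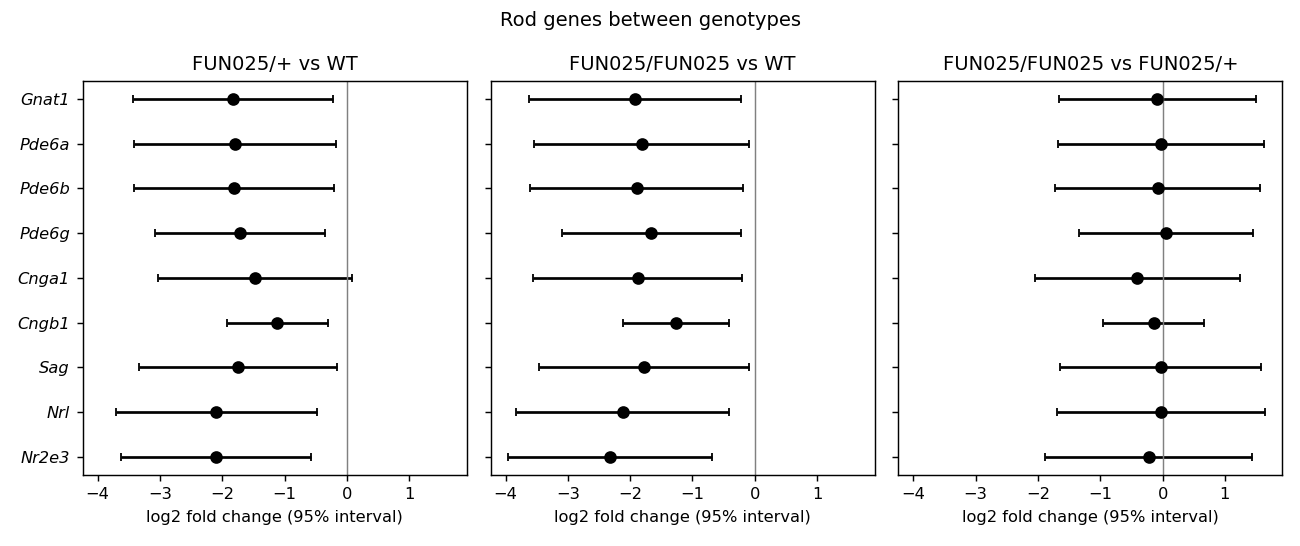
Fitted log2 fold change (horizontal, points) with its 95% interval (bars) for the 9 rod genes in the 3 genotype comparisons, from the edgeR fit of all 15 libraries. Both comparisons with WT have negative points for all 9 genes, from -2.32 to -1.12, and the comparison of the mutant genotypes has points close to 0 with intervals to both sides.

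The 9 genes rose and fell together from library to library. On log2 CPM over the 15 libraries, each gene's correlation with the mean of the other 8 was r = 0.974 to 0.997 for all genes except Cngb1, for which it was 0.927. With genotype means removed the correlations were 0.970 to 0.997 and 0.895, so the joint movement was present within genotypes too. These values are descriptions only, since the 9 genes of a library share its depth and preparation. WT replicate 2 was the highest library for each of the 9 genes, and the lowest was FUN025/+ replicate 2, 5 or 6 or FUN025/FUN025 replicate 5.

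Cngb1 moved least with the rest. Between its lowest and highest library it ranged 7.07-fold, where the other 8 genes ranged 20.1-fold to 46.4-fold. Its log2 slope on the mean of the other 8 was 0.49 (SE 0.055), and the slopes of the other genes were 0.91 to 1.15. On the linear scale, the line of Cngb1 against the summed CPM of the other 8 met the axis at 6.56 CPM (SE 0.61), and at 7.32 CPM (SE 0.86) without WT replicate 2. Its share of the 9 genes' CPM was accordingly highest, 18.7%, in FUN025/+ replicate 6, the library with the least rod RNA, and lowest, 5.20%, in WT replicate 2. The shares of Gnat1 (32.3% to 41.9%) and Sag (11.4% to 20.7%) kept to narrower ranges.

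**Figure D3:**
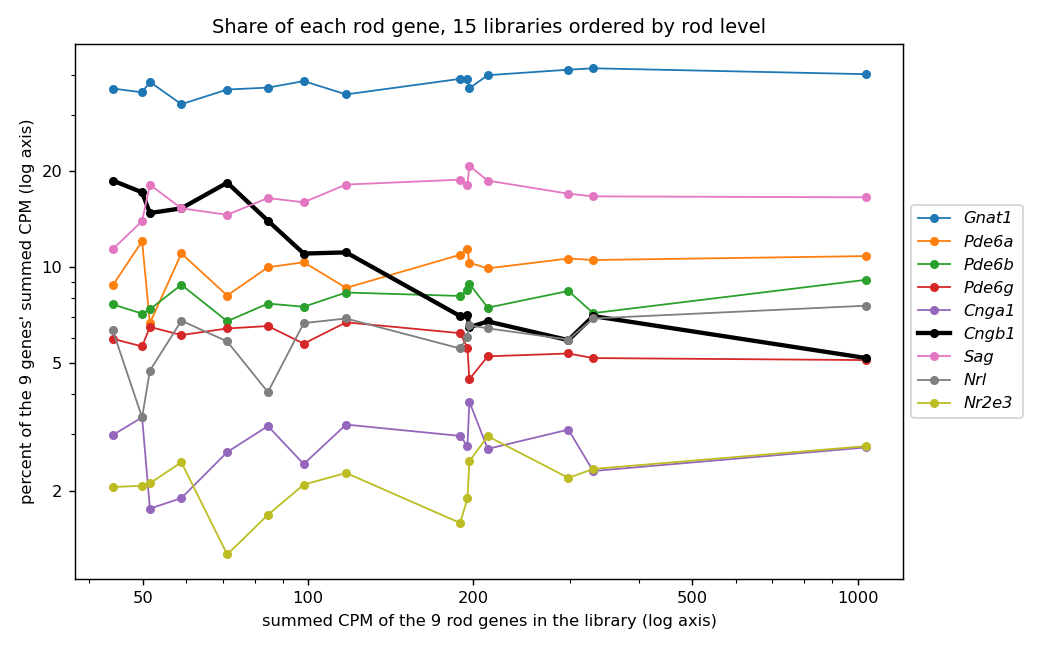
Percent of the 9 genes' summed CPM taken by each gene (vertical, log axis) against that sum (horizontal, log axis) in the 15 libraries, 1 line per gene. Cngb1 (thick black line) goes from 18.7% in the lowest library to 5.20% in the highest, while Gnat1 stays between 32.3% and 41.9%.

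Per length of the principal transcript, the order of levels in WT was Gnat1 (72.9 ± 72.4 CPM per kb, SD, n = 4), Sag (41.7 ± 39.4), Pde6g (24.8 ± 23.1), Pde6b (12.8 ± 14.1), Nrl (12.3 ± 12.9), Pde6a (9.70 ± 10.1), Nr2e3 (5.54 ± 5.73), Cngb1 (4.22 ± 3.07) and Cnga1 (4.14 ± 4.15). No neighbours in this order differed by more than their SD over the 4 mice. Inside a library the order was firmer, since the genes moved together. Gnat1 was above Sag, Pde6g above Pde6b and Pde6a above Nr2e3 in 15 of 15 libraries, and Sag was above Pde6g and Pde6b above Nrl in 14 of 15. Nrl was above Pde6a in 11 of 15 and Cngb1 above Cnga1 in 12 of 15. Nr2e3 was above Cngb1 in 3 of 4 WT, 2 of 6 FUN025/+ and 0 of 5 FUN025/FUN025 libraries, so the order of this pair differed between genotypes, which was not tested.

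The rod level of a library, the mean log2 CPM of the 9 genes, was compared with 17574 other genes of at least 1 CPM on average. The 12 genes with the highest correlation over the 15 libraries include Prph2 (r = 0.996), a structural protein of the outer segment disc rim, and Grk1 (r = 0.993), the kinase that phosphorylates the activated pigment. Rp1, Aipl1, Gngt1, Slc17a7, Tulp1, Neurod1, Kcnj14 and Crx follow, down to r = 0.978 for Crx, the photoreceptor transcription factor. Of these 10 genes, 8 were also among the 12 highest with genotype means removed. In all, 68 genes had r of at least 0.9 and 175 of at least 0.8, and 27 had r of -0.8 or below. The 175 genes were selected on a rod level that was itself highest in WT, so their direction follows from the choice, and edgeR called 26 and 24 of them against WT, a share close to the 13.7% and 14.0% of all tested genes. Rod level correlated with a library's total counts at r = 0.585 over 15 libraries and 0.210 over the 11 mutant libraries, whose depths overlapped, and the part of depth in the differences from WT was not tested.

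Other photoreceptor genes kept to the rod level more than markers of other cell types did. Of 28 tested genes of a list of 29 further photoreceptor genes, 19 had r of at least 0.8, with a median of 0.945. The 4 of the list with the highest mean CPM were not among them: Abca4 (r = 0.031), Gnb1 (0.563), Slc24a1 (-0.353) and Unc119 (0.448). In FUN025/+, of these 28, only Unc119 passed the test (log2 fold change -0.27, edgeR adjusted p = 0.0239), and in FUN025/FUN025 Rom1, Unc119, Kcnv2 and Samd7 did, all lower, where 13.7% and 14.0% of all tested genes passed, so the list's share was not above that of all genes in FUN025/+ and close to it in FUN025/FUN025. The list's median log2 fold change was -1.27 and -1.33. Unc119, which carries lipid-modified transducin, thus fell in both, with r = 0.030 to the rod level once genotype means were removed. At an unadjusted p under 0.05 by edgeR, 17 and 18 of the 28 passed, where 28.8% and 28.6% of all tested genes did. DESeq2 called 8 and 6 of the 28, and its own share of all genes is not given.

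Among 11 tested cone genes, 4 had r of at least 0.8: the cone opsins Opn1sw and Opn1mw, the cone arrestin Arr3, and Grk1, which rods also use. Pde6c, the catalytic subunit of the cone phosphodiesterase, had r = 0.384 and fell in FUN025/FUN025 from 11.1 ± 2.23 CPM in WT to 5.10 ± 0.924 CPM (edgeR adjusted p = 0.000189). Gnb3, the beta subunit of cone transducin, rose from 11.1 ± 7.46 to 28.8 ± 5.49 CPM (adjusted p = 0.0481, edgeR). Of the 11 cone genes, 0 passed in FUN025/+ and 2 in FUN025/FUN025 by edgeR, where 13.7% and 14.0% of all tested genes did. At an unadjusted p under 0.05 by edgeR, 3 and 4 passed, where 28.8% and 28.6% of all tested genes did. DESeq2 called 0 and 3 of the 11, and its own share of all genes is not given. Summed cone markers were 108 to 279 CPM in WT, 97.2 to 143 in FUN025/+ and 130 to 154 in FUN025/FUN025. This sum includes Grk1 (r = 0.993), which ranged from 9.77 to 114 CPM in WT, 3.95 to 28.4 in FUN025/+ and 3.26 to 16.3 in FUN025/FUN025.

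Of the inner retina, r was at least 0.8 for 2 of 8 tested bipolar markers (Grm6 and Cabp5), 2 of 6 amacrine and horizontal markers (Gad1 and Calb2) and 1 of 8 ganglion markers (Isl1), genes named here after their values were seen. Trpm1, a channel of both bipolar cells and pigment cells and the most abundant bipolar marker, had r = 0.453. The summed bipolar list was 758 to 1179 CPM in WT, 695 to 962 in FUN025/+ and 729 to 1114 in FUN025/FUN025, the amacrine and horizontal list 541 to 680, 534 to 709 and 564 to 807, and the ganglion list 117 to 192, 99.7 to 126 and 98.7 to 114 CPM. Of ganglion markers, Rbpms and Sncg passed in FUN025/+ and Rbpms in FUN025/FUN025, all lower, with edgeR (2 and 1 of 8, where 13.7% and 14.0% of all tested genes passed). Of bipolar, amacrine and horizontal markers 0 passed by edgeR or DESeq2, and at an unadjusted p under 0.05 the counts were 3 and 5 of 8 ganglion, 2 and 3 of 8 bipolar and 1 and 2 of 6 amacrine and horizontal markers, where 28.8% and 28.6% of all tested genes passed. Of 10 Müller glia markers, led by Glul, 0 had r of at least 0.8 and 0 passed by edgeR in either comparison with WT (1 and 2 at an unadjusted p under 0.05, 0 and 1 by DESeq2), and their sum was 4100 to 5002 CPM over all libraries. Glul, Dkk3, Car14 and Vim made up most of that sum, with WT means of 1878, 1130, 638 and 584 CPM. Which cells these transcripts came from was not tested, so the sum is not a measure of Müller glia RNA alone. The part of other retinal cells in the rod differences was not tested.

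Outside the retina, 0 of 14 pigmented epithelium markers, led by Rgr and Ttr, 0 of 11 tested striated muscle genes and 0 of 8 lens genes had r of at least 0.8. Muscle genes such as Atp2a1 (r = -0.040 over all libraries) ran against the rod level inside genotypes, with a median r of -0.635, and 4 of the 11 passed by edgeR in each comparison with WT, all lower, where 13.7% and 14.0% of all tested genes passed. At an unadjusted p under 0.05 by edgeR these counts were 8 and 7, where 28.8% and 28.6% of all tested genes passed. DESeq2 called 6 and 6 of the 11 muscle genes, without a DESeq2 share of all genes to read them against. The muscle sum was 5618 to 10461 CPM in WT, 3005 to 7586 in FUN025/+ and 4547 to 5516 in FUN025/FUN025. The lens sum was 304 to 345, 266 to 351 and 264 to 537 CPM, with Cryab passing in FUN025/+, where it was lower, and 0 lens genes passing in FUN025/FUN025 by edgeR or DESeq2 (2 at an unadjusted p under 0.05). Cryab ran against most of its list, of which 2 of 8 genes were lower in each comparison, with median log2 fold changes of 1.33 and 2.61. Epithelium markers gave 0 calls in both by edgeR, with 2 and 3 of 14 at an unadjusted p under 0.05, and 1 and 0 by DESeq2.

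**Figure D4:**
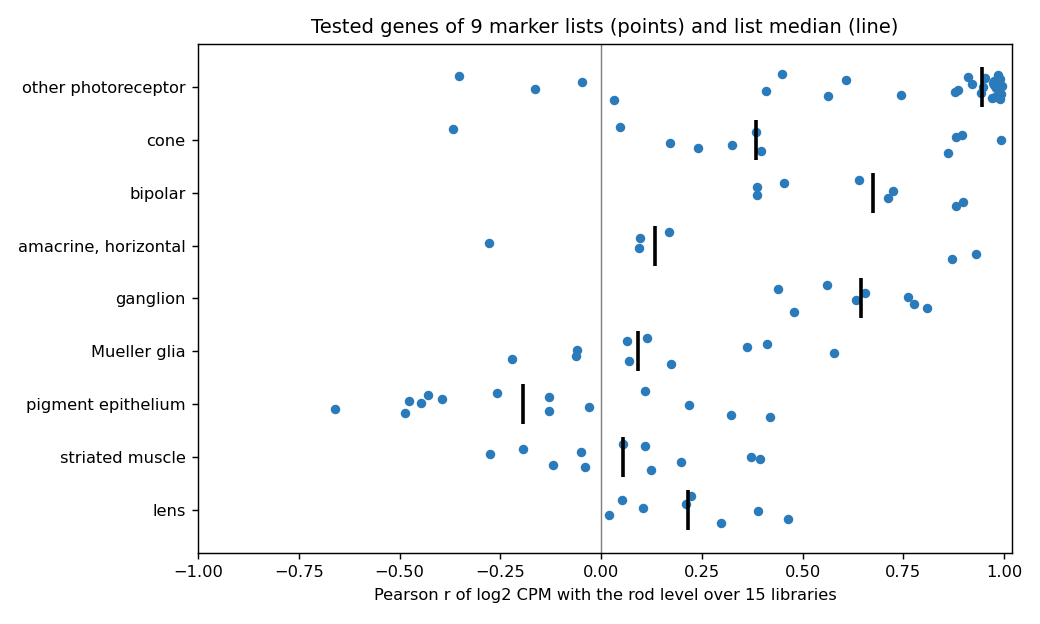
Pearson r of log2 CPM with the rod level over 15 libraries (horizontal) for the tested genes of 9 marker lists (vertical, 1 point per gene, black line at the list median). Other photoreceptor genes have a median of 0.945 and gather near 1, and the pigmented epithelium, muscle and lens lists hold no gene at 0.8 or above.

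With the rod level of each library as a covariate in the edgeR fit, the number of all tested genes called went from 2600 to 2229 for FUN025/+ against WT, from 2666 to 2444 for FUN025/FUN025 against WT, and from 99 to 118 between the mutant genotypes. Rod level itself differed in mean between WT and the mutants, so the covariate and the genotype share part of their difference. No value for the 9 genes is given from this fit, since they make up the covariate.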

How the data were processed

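RNA was sequenced from 15 mouse posterior eyecups (poly(A) selection, NEBNext Ultra libraries, paired-end HiSeq reads). The authors deposited raw read counts per Ensembl gene and library, without normalization. The submitters' processing notes name FastQC 0.11.8, Trimmomatic 0.39, HISAT2 2.1.0, SAMtools, featureCounts 2.0.0 and GRCm38; the annotation release and strand setting are not given in the sources used here. Genotypes were taken from the labels. GENCODE M21 named 55240 of 55421 genes.

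As in the study, genes in the lowest 15% by variance were dropped, and edgeR's filterByExpr then left 18979 genes. Counts were scaled by TMM and fitted for all 15 mice together (edgeR 4.0.16, quasi-likelihood, robust, Benjamini-Hochberg, threshold 0.05), after tests on simulated data. The other tests were DESeq2 1.42.0 and limma 3.58.1. Log2 CPM used a prior count of 2. CPM per kb used the length of the principal GENCODE transcript. Depth was 10903183 to 20029919 counts per library. R 4.3.3 was used with Python 3.11.15 (scipy 1.17.1, pandas 2.3.3, numpy 2.4.6).

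The 9 genes, the marker lists and the tests were chosen with earlier results of these data known. Named genes are the 9, up to 4 per list with the highest mean CPM, genes named where a count of calls or likeness is small, and the 12 most like the rod level, of which 2 are not reported here. Nothing in the sources describes cultures, litters or batches beyond 1 mouse per library. Alternatives were other scalings, filters, tests, fewer genotypes in the fit, the replicate number as a block, the rod level as a covariate, and leaving out each mouse.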

Additional observations from a re-analysis of the deposited data

Results flagged for a closer look

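Of 60 sets of 4 to 6 libraries of 1 genotype, for the CPM of each rod gene, its share of the 9 genes' CPM and their sums, 6 had a library further from the others than Dixon's 95% limit. That limit is passed by about 1 in 20 sets of independent, normally distributed values. The sets here reuse the same libraries and the genes moved together, so 6 of 60 cannot be compared with that rate. In WT replicate 2, Pde6b was at 94.4 CPM, with the next WT library at 23.7, and Cnga1 was at 28.2 CPM, with the next at 7.61. Gnat1 took 41.5% of the 9 genes' CPM in FUN025/+ replicate 1, above 36.4% in the next library, and 32.3% in FUN025/FUN025 replicate 1, below 37.96% in the nearest. Pde6a took 6.68% in FUN025/FUN025 replicate 5, below 10.4% in the nearest library. Pde6g took 6.72% in WT replicate 4, above 5.26% in the next.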

How the results depend on the processing

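The rod level as a covariate gives no value for the 9 rod genes and is left out here. Under every other alternative all 9 were lower than in WT in both comparisons (216 of 216 single-gene values each). Between the mutant genotypes 164 of 216 values were lower in FUN025/FUN025. These fits reuse the same libraries, so the values are not separate results. The count of rod genes called moved. For FUN025/+ against WT it was 0, and 4 with DESeq2. For FUN025/FUN025 against WT it was 0, 3 with DESeq2 and 1 with at least 10 counts in every library (Cngb1, edgeR adjusted p = 0.0479). Leaving out 1 mouse gave 0 to 3 and 0 to 2 calls: without FUN025/+ replicate 1 these were 3 and 1, without WT replicate 4, 2 and 2, and without WT replicate 3, 1 and 1. Between the mutant genotypes the count was 0 throughout. The median log2 fold change of the 9 genes ranged over left-out mice from -2.32 to -0.83, from -2.17 to -0.88 and, between mutants, from -0.32 to 0.45, with WT replicate 2 (both comparisons with WT) and FUN025/+ replicate 1 (between mutants) giving the last value of each. All-gene calls ranged from 1446 to 2722, 1528 to 2701 and 68 to 110 over left-out mice, the lowest in both comparisons with WT without WT replicate 4, and DESeq2 called 171 between the mutants. The causes were not tested. Mice that share a replicate number are separate animals, and their deviations correlated at -0.385 to 0.133, so the numbers do not pair them. With the replicate block the medians were -1.0, -1.33 and -0.31, 0 rod genes were called in each comparison, and all-gene calls were 2010, 2137 and 80. Depth limits Nr2e3 and Cnga1 most, with 11 and 10 counts in their lowest libraries.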

Other observations

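Among genes of at least 1 CPM on average, the 3 whose log2 CPM ran most strongly against the rod level over the 15 libraries, named after their values were seen, were Trappc3, a subunit of a vesicle tethering complex (r = -0.916, and -0.867 with genotype means removed), Vta1, a cofactor of endosomal sorting (r = -0.862 and -0.873), and Gm44364 (r = -0.856 and -0.767). Without the 2 libraries farthest from the median rod level these correlations were -0.855, -0.740 and -0.759. Gnb3 followed the rod level within genotypes (r = 0.927 with genotype means removed) and less over all libraries (r = 0.325), where its level was highest in FUN025/FUN025.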
